A study of Mus musculus with 18 samples.

Results

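The liver X receptor (LXR) gene set followed here comprised 10 genes: the receptor gene Nr1h3 (LXRα), the cholesterol transporters Abca1 and Abcg1, the apolipoproteins Apoe, Apoc1 and Apoc2, the lipid transfer and remodelling enzymes Pltp and Lpcat3, and the oxysterol-forming enzymes Cyp27a1 and Ch25h. Members were the probe sets annotated to exactly 1 of these gene symbols. Of the 10 genes, 9 were measured, by 10 probe sets, among 17097 genes and 28898 single-gene probe sets in all; Abca1 was not analysed here because no probe set carried its symbol in the annotation used. Abcg1 had 2 probe sets, and the one with the higher mean over all arrays stood for the gene.

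The material was bone marrow-derived macrophages of male FVB/NJ mice aged 10 to 14 weeks, either wild type (WT) or knockout for Klf3 (KO), which encodes the zinc-finger repressor Krüppel-like factor 3. Marrow was cultured over 7 to 10 days with 20% conditioned medium of L929 cells, a source of the macrophage growth factor M-CSF. The conditioned medium was then washed out of all cultures and replaced by regular medium. RNA was taken directly (0 h) or following 8 h of exposure to bacterial lipopolysaccharide (LPS, 100 ng/mL) or to its vehicle (PBS), giving 6 groups of 3 arrays. The labels do not say which part of Klf3 was deleted, nor whether replicates came from separate mice or cultures, so the p-values measure the spread between these samples only, which may be technical. Plate positions in the labels put each treatment in its own plate rows, so plate row and treatment cannot be told apart; every treatment's rows held both genotypes.

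LXRs are nuclear receptors that sit on DNA as dimers with retinoid X receptors and are switched on by oxysterols, oxidised derivatives of cholesterol. In macrophages they are known for inducing the genes that move excess cholesterol out of the cell: the ABC transporters load it onto lipoprotein particles, and ApoE, ApoC-I, ApoC-II and phospholipid transfer protein shape those particles. Cyp27a1 and Ch25h make oxysterols and so lie upstream of the receptor, whereas Lpcat3 changes the fatty acids of membrane phospholipids.

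Promoter sequences of RefSeq (GRCm38.p6, from 250 bases before to 50 bases after a gene's start site) were found for 7 of the 9 measured genes, as 10 entries. The 250 bases upstream of the start are printed for Apoc2 and Pltp, the members that passed the test between genotypes after LPS, and for Ch25h, the member that rose most with LPS. Capitals mark the receptor half-site AGGTCA. All 3 genes lie on the minus strand, and the sequences read 5′ to 3′ toward the start.
Apoc2, chr7:19677942-19678191: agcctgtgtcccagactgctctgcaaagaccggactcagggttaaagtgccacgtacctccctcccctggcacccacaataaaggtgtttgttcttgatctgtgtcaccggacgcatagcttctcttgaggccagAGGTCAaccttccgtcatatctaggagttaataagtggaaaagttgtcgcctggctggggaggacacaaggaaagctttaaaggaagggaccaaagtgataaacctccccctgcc
Pltp, chr2:164857709-164857958: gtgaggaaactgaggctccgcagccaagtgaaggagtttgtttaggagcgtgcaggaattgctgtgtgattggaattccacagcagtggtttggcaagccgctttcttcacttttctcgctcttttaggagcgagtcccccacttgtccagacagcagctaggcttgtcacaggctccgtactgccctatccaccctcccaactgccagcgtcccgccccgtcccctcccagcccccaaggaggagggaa
Ch25h, chr19:34475149-34475398: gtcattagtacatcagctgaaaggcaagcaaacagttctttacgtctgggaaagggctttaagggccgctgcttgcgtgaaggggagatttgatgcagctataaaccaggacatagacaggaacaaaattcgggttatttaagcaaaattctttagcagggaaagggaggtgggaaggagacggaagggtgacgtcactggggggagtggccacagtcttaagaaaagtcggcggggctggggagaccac
The half-site was found on either strand in 1 of the 10 entries, that of Apoc2, with first bases at position -115 and, beyond the stretch printed, at position 43 from the start site; 16.3% of the 32851 mouse promoters of the same length held it. The LXR response element was searched as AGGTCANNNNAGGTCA, a repeat of that half-site with 4 free letters between the copies, on both strands with up to 3 of the 12 fixed letters different. It was found in 0 of the 10 entries, against 21.9% of all promoters. These counts describe the letters in these windows only.

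Values are given as normalized intensity, the deposited intensity after log2 and quantile normalization over all 18 arrays, returned to the linear scale. A value was taken as above background when it exceeded the 95th percentile of the 23 nonspecific control probe sets of its array, a level between 13.1 and 23.2. Between 52.4% and 58.7% of genes lay above it on each array. Brightness of different probe sets is not compared, since probes differ in affinity; the number of arrays limits the precision. Klf3 was read by 6 probe sets. The brightest gave 295 to 704 on the 9 WT arrays and 67.7 to 175 on the 9 KO arrays, with no overlap (limma, adjusted p = 0.000187 for the LPS groups, 0.0529 for the vehicle groups and 0.185 at 0 h). Each of 2 others passed as lower in KO cells in all 3 conditions, 1 of them by 16.9-fold at 0 h, and 0 passed as higher in any. Another read 2.85-fold higher in KO cells at 0 h and 2.47-fold higher after vehicle, without overlap (adjusted p = 0.105 and 0.424, limma on probe sets). The remaining probe sets also read higher in KO cells at 0 h without overlap. They differed by 1.61-fold and at least 1.42-fold (adjusted p = 0.453 and 0.244, limma on probe sets), and their groups overlapped after vehicle. Of 8 macrophage markers, the 7 measured were above background on all arrays. The measured markers of dendritic cells (4 of 6), stromal cells (6 of 6), adipocytes (2 of 4) and mast cells (4 of 4) were above background on none. Nor were the neutrophil granule genes Elane, Mpo and Ltf. Among markers of other cells, Cd3e was above background on 17 arrays (at most 39.1), Cd79b on 14 (33.5), Cd2 on 4 (27.3), Klf1 on 3 (23.2) and Apoa2 on 2 (21.4), and S100a8 on 12 (587) and Camp on 6 (318); their part in the members' values was not tested.

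After 8 h of LPS the apolipoprotein genes Apoe, Apoc1 and Apoc2 and the hydroxylase gene Cyp27a1 were lower, and the hydroxylase gene Ch25h and the receptor gene Nr1h3 higher, than with vehicle in both genotypes. Abcg1, Pltp and Lpcat3 fell in KO cells and did not pass in WT cells. In WT cells Apoc2 was 8.40-fold and Apoe 4.17-fold lower, Cyp27a1 was 14.9-fold lower with 1 of its 3 LPS arrays above background, and Ch25h was 17.1-fold higher. In KO cells Apoc2 was 30.2-fold, Pltp 7.55-fold and Abcg1 6.76-fold lower. Of the 9 members, 2 rose, 4 fell and 3 did not pass in WT cells (limma, Benjamini-Hochberg adjusted p under 0.05 over 17097 genes), where 32.3% of all genes passed, 13.7% higher and 18.7% lower. In KO cells 2 rose and 7 fell, where 34.5% of all genes passed, 13.9% higher and 20.6% lower. The members' median log2 difference was -0.93 in WT and -1.92 in KO cells, against -0.01 and -0.03 over all genes. In bulk samples, fewer cells that express a gene and less RNA per cell cannot be told apart.

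**Figure D1:**
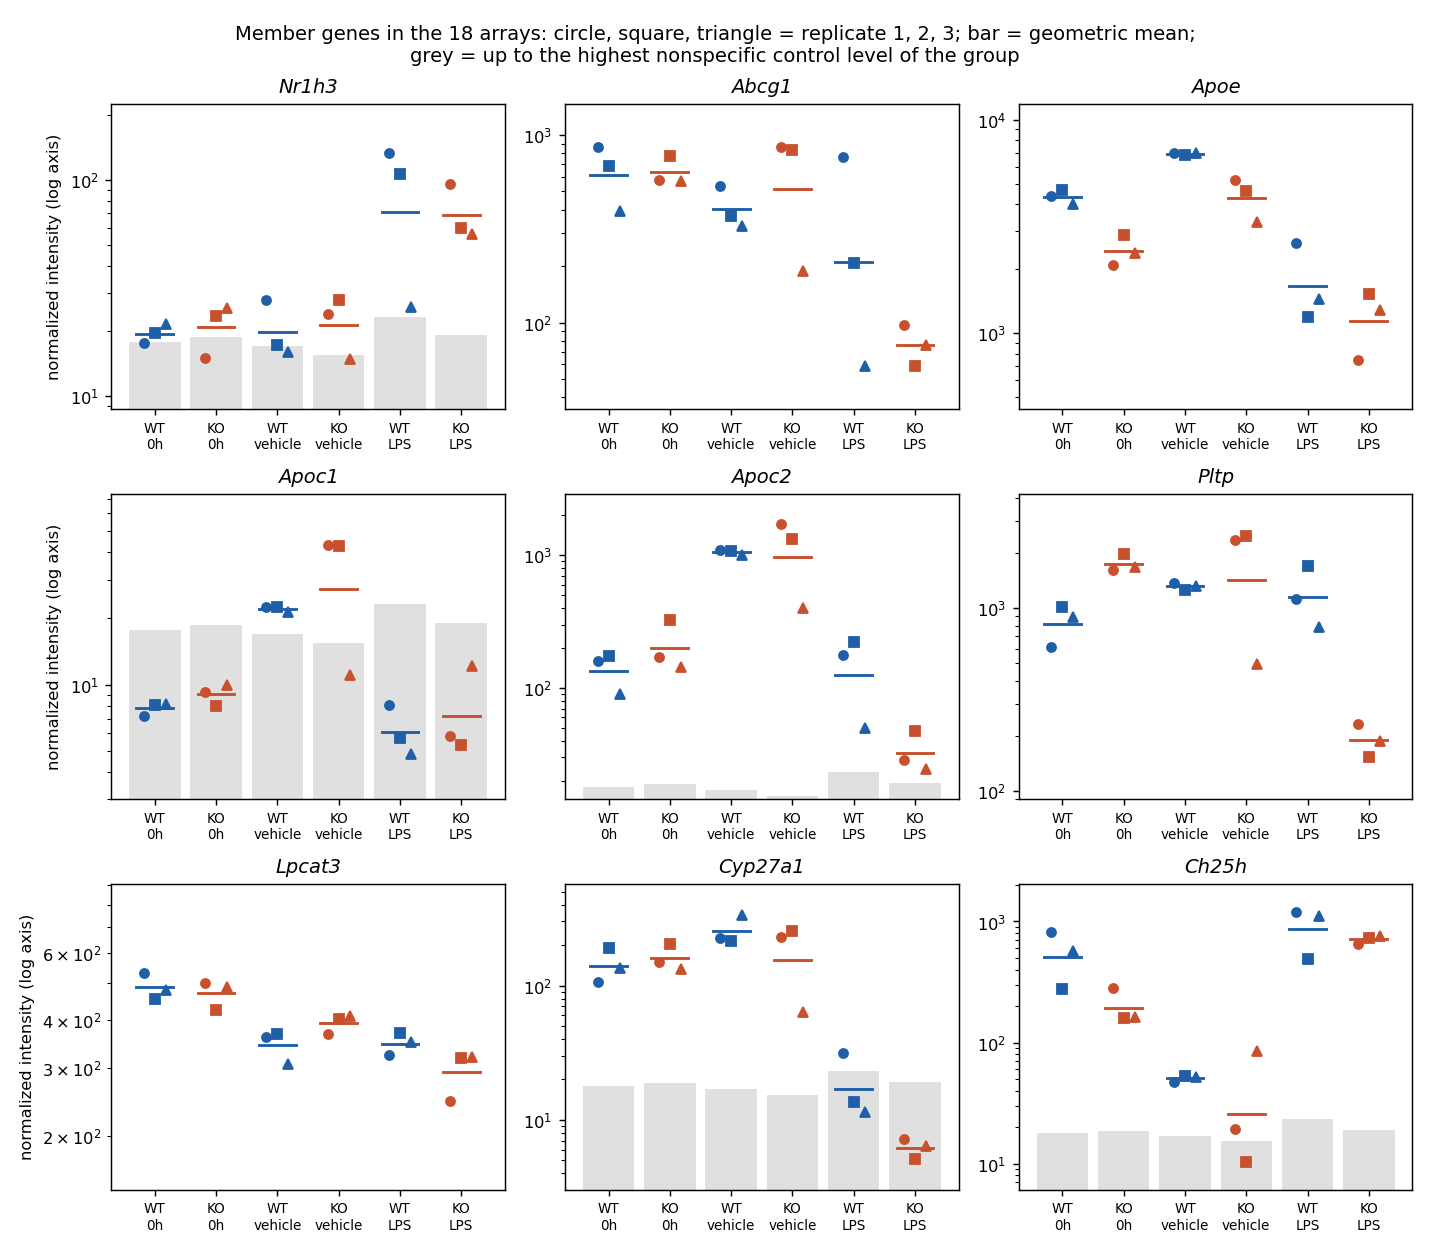
Normalized intensity (log axis) of the 9 measured members on each of the 18 arrays, one panel per gene, by genotype and condition. Points are single arrays (circle, square and triangle for replicates 1, 2 and 3), bars are geometric means of 3 arrays, and the grey area reaches the highest nonspecific control level of the group. KO vehicle replicate 3 lies apart from its 2 fellows for Abcg1, Apoc1, Apoc2, Pltp, Cyp27a1 and Ch25h.

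Nr1h3 encodes LXRα, the sensor of the pathway. It read 17.5, 19.5 and 21.5 in WT cells at 0 h, 27.6, 17.2 and 15.9 after vehicle, and 133, 106 and 25.7 after LPS. KO cells gave 15.0, 23.4 and 25.6 at 0 h, 23.9, 27.6 and 14.7 after vehicle, and 96.1, 59.7 and 56.2 after LPS. At 0 h and after vehicle the gene lay close to background, with 1 KO array at 0 h below it. The WT LPS group overlapped the WT vehicle group, because WT LPS replicate 3 read below WT vehicle replicate 1, whereas the KO groups did not overlap. Nr1h3 rose by 1.86 ± 0.46 on the log2 scale in WT (SE, n = 3 per group; limma, adjusted p = 0.00449) and by 1.68 ± 0.46 in KO cells (adjusted p = 0.00828). The WT call was lost without WT replicate 2 (adjusted p = 0.0891), and the KO call without KO replicate 1 (0.0704) or KO replicate 3 (0.0620).

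Abcg1 encodes the transporter that passes cholesterol to high-density lipoprotein. It read 535, 369 and 329 in WT cells after vehicle and 767, 208 and 58.7 after LPS, a range from above every vehicle array to far below them all. KO cells read 864, 831 and 188 with vehicle and 97.5, 58.8 and 76.2 with LPS. The KO groups did not overlap, and Abcg1 fell by 2.76 ± 0.69 in KO cells (limma, adjusted p = 0.00476); the WT difference was -0.93 ± 0.69 (adjusted p = 0.360). The WT value passed with equal hybridisation controls, at -1.43 ± 0.45 (limma, adjusted p = 0.0108). Leaving out each replicate number of a genotype gave an adjusted p of 0.0849 or more. The WT value also passed without WT LPS replicate 1, at -1.86 ± 0.60 (adjusted p = 0.0245). That array, the highest of its group, was left out after seeing the data. The KO call was lost without KO replicate 1 (adjusted p = 0.0505) or KO replicate 2 (0.0890). The other Abcg1 probe set, 1455221_PM_at, read 49.2, 46.3 and 45.2 after vehicle and 72.5, 36.6 and 25.8 after LPS in WT cells. Its KO readings were 90.9, 91.8 and 45.1, then 51.9, 57.1 and 47.9. It did not pass in either genotype (-0.20 ± 0.35 in WT, adjusted p = 0.747; -0.47 ± 0.35 in KO, adjusted p = 0.355), so the 2 probe sets of Abcg1 disagreed on the call in KO cells.

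Apoe encodes apolipoprotein E, which macrophages secrete as a cholesterol acceptor. Its intensity was 6935, 6799 and 6984 in WT cells after vehicle, the closest 3 readings of any member in any group on the log2 scale, and 2651, 1188 and 1445 after LPS. KO cells gave 5217, 4613 and 3301 with vehicle and 747, 1516 and 1287 with LPS. All LPS arrays lay below all vehicle arrays in each genotype. Apoe fell by 2.06 ± 0.28 in WT and by 1.92 ± 0.28 in KO cells (limma, adjusted p = 2.06e-05 and 3.49e-05).

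Apoc2 encodes apolipoprotein C-II, the cofactor that activates lipoprotein lipase, and lies in a gene cluster with Apoe and Apoc1. It read 1099, 1074 and 1002 in WT cells after vehicle and 178, 224 and 50.2 after LPS. KO readings were 1711, 1323 and 403 after vehicle and 28.5, 47.3 and 24.5 after LPS. There was no overlap in either genotype. Apoc2 fell by 3.07 ± 0.55 in WT (limma, adjusted p = 0.000309) and by 4.92 ± 0.55 in KO cells (adjusted p = 2.21e-06).

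Apoc1, for apolipoprotein C-I, an inhibitor of lipoprotein lipase and of remnant uptake, was above background on only 5 of the 18 arrays: WT vehicle 22.4, 22.4 and 21.4, and KO vehicle 43.3 and 42.5. KO vehicle replicate 3 read 11.1, below background, as did all LPS arrays, at 4.85 to 8.11 in WT and 5.30 to 12.2 in KO cells. The measured differences were -1.86 ± 0.41 in WT and -1.92 ± 0.41 in KO cells (limma, adjusted p = 0.00175 and 0.00124). Because the LPS groups had only a bound, the drop was at least 1.25-fold in WT and at least 1.62-fold in KO cells. The WT call did not hold when values below the nonspecific level were raised to it (-0.32 ± 0.29, adjusted p = 0.324), whereas the KO call did.

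Pltp encodes phospholipid transfer protein, which remodels lipoprotein particles. It read 1376, 1249 and 1326 in WT cells after vehicle and 1120.0, 1692 and 789 after LPS, so that the WT groups overlapped. In KO cells it read 2357, 2479 and 494 after vehicle and 233, 152 and 188 after LPS, with no overlap. Pltp fell by 2.92 ± 0.45 in KO cells (limma, adjusted p = 6.64e-05); the WT difference was -0.20 ± 0.45 (adjusted p = 0.796).

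Lpcat3 encodes the acyltransferase that puts polyunsaturated fatty acids into phospholipids. It varied least among the members, at 361, 368 and 308 after vehicle and 324, 370.0 and 350.2 after LPS in WT cells. The KO arrays gave 369, 402 and 409.7 after vehicle and 246, 319 and 321 after LPS, without overlap. Lpcat3 fell by 0.42 ± 0.13 in KO cells (limma, adjusted p = 0.0149), a call lost under each of the 3 other scalings of the arrays (none, equal medians, equal hybridisation controls) and without KO replicate 1 (adjusted p = 0.107) or 3 (0.0511). The WT difference was 0.01 ± 0.13 (adjusted p = 0.965), and -0.61 ± 0.21 (adjusted p = 0.0248) with no scaling.

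Cyp27a1 encodes sterol 27-hydroxylase, the mitochondrial enzyme that makes 27-hydroxycholesterol. It read 227, 216 and 335 in WT cells after vehicle and 31.7, 13.7 and 11.5 after LPS, where 1 of 3 arrays was above background. KO arrays read 232, 256 and 63.4 after vehicle and 7.25, 5.13 and 6.35 after LPS, all 3 below background. No LPS array reached a vehicle array in either genotype. Cyp27a1 fell by 3.90 ± 0.45 in WT cells (limma, adjusted p = 4.18e-06), and by 3.00 with a pseudocount of 16, and in KO cells the drop was at least 9.24-fold (adjusted p = 4.62e-07).

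Ch25h encodes cholesterol 25-hydroxylase, an interferon- and LPS-inducible enzyme that makes 25-hydroxycholesterol. It read 47.1, 53.1 and 51.9 in WT cells after vehicle and 1195, 489 and 1106 after LPS. In KO cells it read 19.3, 10.4 and 85.5 after vehicle, the second below background, and 653, 725 and 762 after LPS. The groups were far apart in both genotypes, at 4.09 ± 0.57 in WT and 4.79 ± 0.57 in KO cells on the log2 scale (limma, adjusted p = 2.98e-05 and 4.84e-06). The 2 oxysterol-forming members therefore moved in opposite directions.

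The LPS and vehicle groups did not overlap for 5 of the 9 members in WT cells, where 40.9% of all genes did not overlap, and for 8 in KO cells, where 45.5% did not. Other measures moved with LPS. The log2 difference between the 5′ and 3′ Gapdh probe sets, which reads RNA integrity and labelling, was -0.17 ± 0.08 after vehicle and -0.36 ± 0.28 after LPS in WT cells (mean ± SD, n = 3), and -0.20 ± 0.09 and -0.43 ± 0.05 in KO cells. Summed intensity of the 6 neutrophil markers measured was 61.5 to 92.8 after vehicle and 419 to 827 after LPS, through S100a8 and Camp, while S100a9, Elane, Mpo and Ltf were above background on no array. The part of these in the members' values was not tested. With the arrays left unscaled the median of all genes was -0.44 in WT cells, and 9.98% of the calls in WT cells were higher, against 42.3% after quantile normalization; with equal medians the share was 29.0% and with equal hybridisation controls 11.8%.

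KO vehicle replicate 3 stood apart from the other KO vehicle arrays for 6 members, with Abcg1, Apoc1, Apoc2, Pltp and Cyp27a1 low and Ch25h high. Over 2171 genes that passed with LPS in WT cells with a log2 difference of 1 or more in size, 59.1% of its values lay on the LPS side of the mean of the other 2 arrays of its group. The WT vehicle arrays gave 46.8% to 52.0% by the same measure. The other 2 KO vehicle arrays gave 44.3% and 42.6%, but against a mean that included replicate 3. Without KO vehicle replicate 3, all 9 members still passed in KO cells after LPS. The differences were then -5.55 ± 0.51 for Apoc2, -3.68 ± 0.27 for Pltp, -3.48 ± 0.68 for Abcg1 and 5.65 ± 0.43 for Ch25h. Among the LPS arrays, WT replicates 1 and 3 lay at opposite ends for Nr1h3 and Abcg1. WT LPS replicate 3 was also the lowest of its group for Apoc2.

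**Figure D2:**
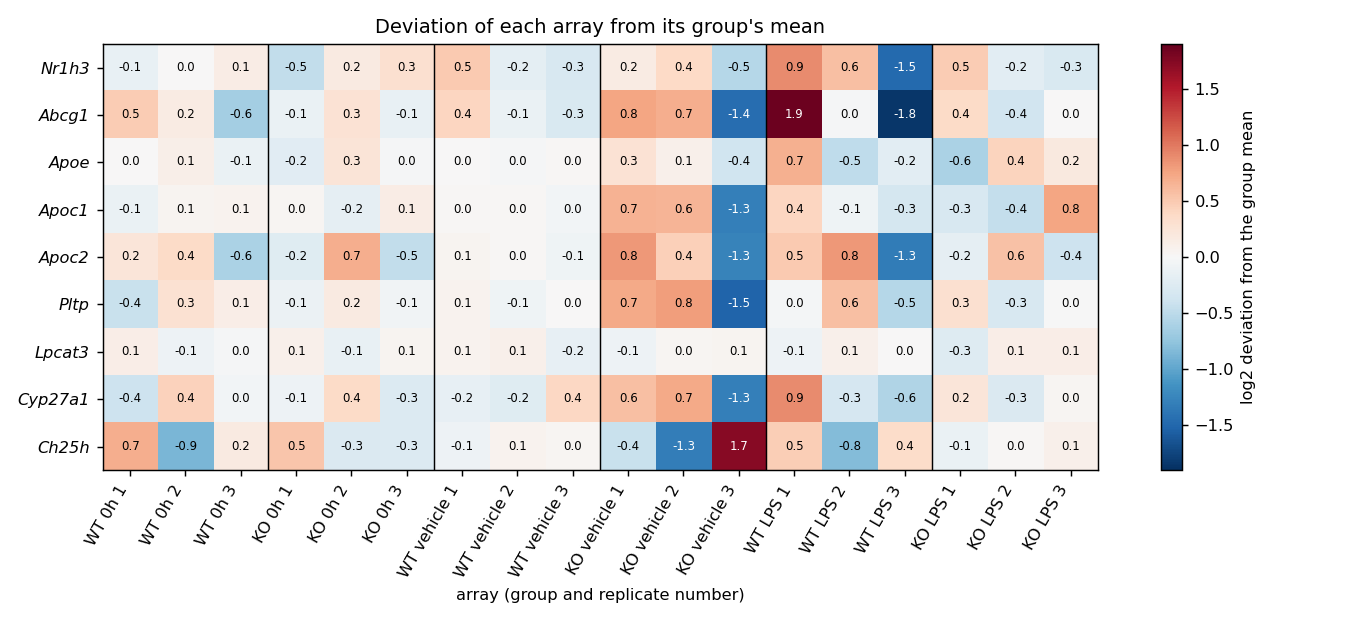
Deviation of each array from its group's mean (log2) for the 9 measured members, one row per member and one column per array; blue cells are below the group mean and red cells above it. The column of KO vehicle replicate 3 is blue for Abcg1, Apoc1, Apoc2, Pltp and Cyp27a1 and red for Ch25h. For Abcg1 and Apoc2, WT LPS replicate 3 is a stronger blue. WT LPS replicates 1 and 3 differ in sign for Nr1h3 and Abcg1.

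The next comparison asked whether the members responded to LPS to a different extent in the 2 genotypes. None of the 9 passed at 0.05 (limma, interaction of genotype and LPS), where 1.11% of all genes did, 0.515% higher and 0.591% lower; 3 members had an unadjusted p under 0.05, against 2077 of all genes. Pltp had the largest difference between responses, -2.71 ± 0.63 (95% interval -4.06 to -1.37; adjusted p = 0.0501). Without KO vehicle replicate 3 the Pltp difference was -3.48 ± 0.36 (adjusted p = 0.000212). That array was left out after its low Pltp reading had been seen, so this value is not independent of it. Leaving out each replicate number of a genotype gave an adjusted p of 0.00210 to 0.302. Over all alternatives the adjusted p of Pltp ranged from 0.000212 to 0.302. For Apoc2 the difference was -1.85 ± 0.77 (interval -3.49 to -0.21; adjusted p = 0.336), for Lpcat3 -0.44 ± 0.18 (0.327), which turned to 0.11 with no scaling and 0.15 with equal hybridisation controls, and for Abcg1 -1.82 ± 0.98 (0.490). For Apoe it was 0.14 ± 0.39, with an interval of -0.69 to 0.97. Of all genes called in this comparison, 46.6% were higher, against 94.6% with no scaling, 77.4% when medians were made equal and 90.9% when hybridisation controls were. That Pltp passed in KO cells and not in WT cells is not by itself a difference between them in this test.

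After LPS, Pltp and Apoc2 were lower in KO than in WT cells, by 6.06-fold and 3.93-fold, and the other 7 members did not pass. These 2 of 9 compare with 5.97% of all genes past the threshold, 3.15% lower and 2.82% higher. The share of all calls that were higher was 47.3%, against 90.6% with no scaling, 68.6% when medians were made equal and 88.0% when hybridisation controls were. The Pltp readings of 233, 152 and 188 in KO cells all lay below the 1120.0, 1692 and 789 of WT cells (log2 difference -2.60 ± 0.45; limma, adjusted p = 0.00221), and the call held in all 20 alternatives. The Apoc2 readings of 28.5, 47.3 and 24.5 all lay below 178, 224 and 50.2, the nearest pair being 47.3 and 50.2 (-1.97 ± 0.55; adjusted p = 0.0425). The Apoc2 call was lost without any 1 of WT replicates 1 or 2 or KO replicates 1, 2 or 3, with adjusted p from 0.0709 to 0.224, and with a pseudocount of 16 (0.0716).

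The genotypes did not overlap after LPS for 4 members, Apoc2, Pltp, Lpcat3 and Cyp27a1, where 18.5% of all genes did not. Cyp27a1 read 31.7, 13.7 and 11.5 in WT against 7.25, 5.13 and 6.35 in KO cells, where 1 WT array and 0 KO arrays were above background, so that the KO level was at least 1.01-fold lower and did not pass (limma, adjusted p = 0.0677). Over its alternatives the adjusted p ranged from 0.0126 to 0.754. The lowest came without KO vehicle replicate 3, left out after seeing the data. The highest came with values raised to the nonspecific level, where the difference was -0.22 on the log2 scale. Abcg1 differed by -1.47 ± 0.69 (limma, adjusted p = 0.263), and by -2.39 ± 0.61 without WT replicate 3 in all 3 conditions (adjusted p = 0.0360). Leaving out only WT LPS replicate 3, chosen after seeing the data, gave -2.39 ± 0.60 (adjusted p = 0.0242). Apoe differed by -0.55 ± 0.28 (0.305), Lpcat3 by -0.25 ± 0.13 (0.317; 0.09 with no scaling and 0.17 with equal hybridisation controls), Ch25h by -0.28 ± 0.57 (0.854) and Nr1h3 by -0.06 ± 0.46 (0.969). Apoc1 was below background in both groups and has no fold. Summed intensity of the 7 macrophage markers was 28163 to 29796 in WT and 23991 to 25524 in KO cells after LPS, and its part in the members' values was not tested.

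**Figure D3:**
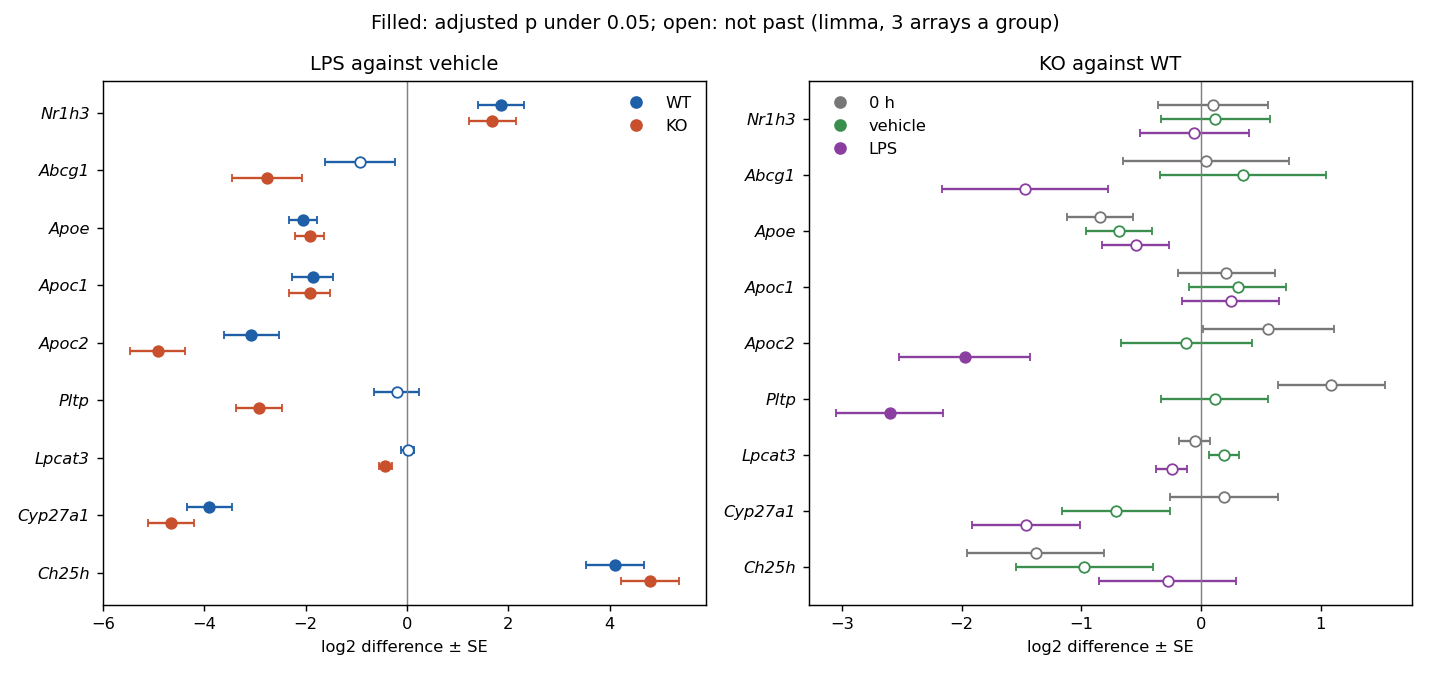
Log2 differences (x axis) of the 9 measured members, with bars of ± 1 SE of the fit. The left panel gives LPS against vehicle in WT and KO cells, the right panel the genotype difference (KO minus WT) in each of the 3 conditions; filled points passed the test and open points did not. All 9 KO points are filled in the left panel, and in the right panel only Apoc2 and Pltp after LPS are.

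At 0 h no member passed between the genotypes (limma), where 0.14% of all genes did, 0.111% higher and 0.0292% lower (79.2% of calls higher, against 52.6% with no scaling, 64% on equal medians and 59.3% on equal hybridisation controls); 3 members had an unadjusted p under 0.05, against 1063 of all genes. Apoe read 4397, 4684 and 4007 in WT and 2081, 2887 and 2381 in KO cells, and Pltp 612, 1008 and 899 in WT and 1611, 1975 and 1672 in KO cells. Neither gene's groups overlapped, Apoe being lower in every KO array and Pltp higher; 14.6% of all genes did not overlap. The differences were -0.84 ± 0.28 for Apoe (adjusted p = 0.472) and 1.09 ± 0.45 for Pltp (adjusted p = 0.700). Pltp readings in KO cells thus lay above those of WT cells at 0 h and below them after LPS. Ch25h read 819, 278 and 573 in WT against 282, 160.4 and 163 in KO cells (-1.38 ± 0.57; adjusted p = 0.704).

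After vehicle no member passed either (limma), and 0% of all genes did; 1 member had an unadjusted p under 0.05, against 778 of all genes. The groups of Apoe and Lpcat3 did not overlap, as for 12% of all genes, with differences of -0.68 ± 0.28 and 0.19 ± 0.13 (both adjusted p = 1.00). Apoe readings were thus below the WT readings in every KO array at 0 h and after vehicle. Without KO vehicle replicate 3, Ch25h differed by -1.84 ± 0.43 (adjusted p = 0.269), Apoc1 by 0.96 ± 0.28 (0.506) and Pltp by 0.88 ± 0.27 (0.549), and none passed.

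The vehicle groups at 8 h differed from the 0 h groups by the time spent without L929-conditioned medium and by the PBS. Over those hours the apolipoprotein genes Apoc2 and Apoc1 rose and Ch25h fell in both genotypes. In WT cells 2 members rose and 2 fell, where 14.2% of all genes passed, 7.16% higher and 7.01% lower. In KO cells 2 rose and 1 fell, where 12.5% passed, 6.76% higher and 5.79% lower. Of all calls, 50.6% in WT and 53.8% in KO cells were higher, against 13.2% and 11.3% with no scaling, 24.6% and 14.1% when medians were made equal, and 23.2% and 14.6% when hybridisation controls were. The log2 difference between the 5′ and 3′ Gapdh probe sets moved over the same hours. It went from 0.14 ± 0.02 to -0.17 ± 0.08 in WT cells (mean ± SD, n = 3). In KO cells it went from 0.09 ± 0.08 to -0.20 ± 0.09. Its part in the members' values was not tested.

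Apoc2 went from 159, 175 and 89.5 at 0 h to 1099, 1074 and 1002 in WT cells, and from 171, 323 and 145 to 1711, 1323 and 403 in KO cells. No groups overlapped, and the rise was 7.81-fold in WT (limma, adjusted p = 0.00153) and 4.85-fold in KO cells (adjusted p = 0.0109). Apoc1 was below background on all 6 arrays at 0 h, at 7.16 to 9.91, and its rise was at least 1.27-fold in WT (adjusted p = 0.0192) and at least 1.62-fold in KO cells (adjusted p = 0.0155); neither call held with values raised to the nonspecific level (0.326 and 0.0751). Ch25h fell 10.0-fold in WT (adjusted p = 0.000930) and 7.56-fold in KO cells (adjusted p = 0.00268). Its LPS readings were set against vehicle readings that had fallen from 0 h: 1195, 489 and 1106 after LPS in WT cells overlapped the 819, 278 and 573 of 0 h, whereas 653, 725 and 762 in KO cells all lay above the 282, 160.4 and 163 of 0 h; LPS against 0 h was not tested.

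Lpcat3 went from 533, 454 and 481 to 361, 368 and 308 in WT cells (-0.50 ± 0.13; limma, adjusted p = 0.0135), and by -0.26 ± 0.13 in KO cells (adjusted p = 0.224). Apoe differed by 0.67 ± 0.28 in WT (adjusted p = 0.134) and by 0.82 ± 0.28 in KO cells (0.0634), without overlap in either. The KO value was 1.02 ± 0.30 and passed (0.0371) without KO vehicle replicate 3, left out after seeing the data. Nr1h3, Abcg1, Pltp and Cyp27a1 did not pass. The groups did not overlap for 7 members in WT cells, where 36.3% of all genes did not, and for 5 in KO cells, where 33.7% did not. No member passed for a difference between the genotypes in this change, where 0% of all genes did (limma; 0 members and 628 of all genes at an unadjusted p under 0.05). In KO cells the calls of Apoc1, Apoc2 and Ch25h were lost without KO replicate 1 (adjusted p = 0.189, 0.194 and 0.0875), and those of Apoc1 and Apoc2 without KO replicate 2 (0.185 and 0.0518). In WT cells the Apoc1 call was lost without any 1 of the 3 replicates (0.109 to 0.124), and that of Lpcat3 without replicate 1 (0.0809) or 3 (0.139) or with equal hybridisation controls (0.440).

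The members did not vary as one block within groups. Pearson's r between deviations from group means is given as a description over 18 arrays that share the hybridisation plate, the scaling and the 3 arrays of each group. Nr1h3 and Abcg1 had r = 0.81, and 0.80 without KO vehicle replicate 3, although their r over the log2 values themselves was -0.36. Both genes spread most in the WT LPS group (SD 1.29 and 1.85 on the log2 scale), and r without its arrays was not computed. Pltp and Ch25h had r = -0.90, and -0.73 without KO vehicle replicate 3. Abcg1 had r = 0.77 with Cyp27a1 and 0.76 with Apoc2, and 0.67 and 0.65 without it. Apoc1 and Apoc2, which lie in the same cluster, had r = 0.45, and -0.06 without it, so that their link within groups rested on that array.

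Over the 18 arrays the patterns most like each member, among 9823 genes above background in every array of at least 1 group, included Fundc1 for Cyp27a1 (r = 0.99), Slamf9 for Ch25h (0.96), Mtus1 for Apoc2 (0.96) and Znrd1 for Abcg1 (0.95). Gla, which encodes the lysosomal enzyme α-galactosidase A, was most like Apoe (0.94), and Rad51c was most like Lpcat3 (0.94). Ms4a6b was most like Nr1h3 (0.93) and Bckdha most like Apoc1 (0.93). For Pltp the leading gene was Cd5l (0.92), a macrophage LXR target that encodes a secreted scavenger protein. These values include the differences between the 6 groups and come with no test.

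The wider pathway was read from 8 lists of 70 genes, 57 of them measured. Among LXR partners and coregulators, 6 of 8 measured genes fell and 0 rose with LPS in each genotype, where 18.7% of all genes fell in WT and 20.6% in KO cells, and 13.7% and 13.9% rose; the LPS counts of the other lists are read against the same shares. Rxra, the main partner of LXRα in macrophages, fell by 1.87 ± 0.18 in WT and by 2.09 ± 0.18 in KO cells (limma, adjusted p = 7.25e-07 and 1.58e-07). The coactivator genes Ncoa3, Ncoa1 and Ncoa2 fell by 1.86, 1.07 and 1.02 in WT and by 1.73, 1.67 and 1.25 in KO cells. The list's median was -0.81 in WT and -0.98 in KO cells, against -0.01 and -0.03 over all genes, while Nr1h3 itself rose. After LPS, 1 of the 8 passed as lower in KO than in WT cells and 0 as higher (limma). Of all genes 3.15% were lower and 2.82% higher. The mean of Ncoa1 was then 263 in WT and 177 in KO cells. How that call fared under the alternatives is not given here. From 0 h to vehicle 3 of the 8 rose and 0 fell in each genotype, where 7.16% of all genes rose in WT and 6.76% in KO cells, with Rxra at 0.95 ± 0.18 in WT and 1.11 ± 0.18 in KO cells. With the mean of its probe sets Rxra gave 0.29 (adjusted p = 0.342) and 0.22 (0.497), and neither passed.

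Of other LXR targets, 11 of 14 were measured. With LPS 1 rose and 3 fell in WT cells. Abcg8, a sterol transporter gene, rose by 0.63. That call was lost with no scaling, with equal hybridisation controls and without WT replicate 1 (limma, adjusted p = 0.546, 0.699 and 0.131). Abcg8 lay close to background, at 11.7 to 17.4 after vehicle (2 of 3 arrays above) and 20.3 to 27.6 after LPS. Acsl3, Smpdl3a and Mertk fell by 2.35, 1.33 and 1.00. The WT LPS arrays of Acsl3 read 6.49 to 24.2, and 2 of 3 were above background. In KO cells 1 rose and 4 fell, with Cd5l at -2.61 ± 0.47 and Smpdl3a, a secreted phosphodiesterase, at -1.33 ± 0.18. Lpl had KO means of 3133 after vehicle and 4831 after LPS. The list's median log2 differences were -0.19 in WT and -0.47 in KO cells. Between the genotypes after LPS, where 5.97% of all genes passed, 1 of the 11 did: Cd5l, 5.50-fold lower in KO cells (-2.46 ± 0.47; limma, adjusted p = 0.00480), a call lost without WT replicate 2 (0.0514). Mertk, the receptor for apoptotic cells, rose from 0 h to vehicle by 1.28 ± 0.18 in WT and by 1.39 ± 0.18 in KO cells. Acsl3, a fatty acyl-CoA synthetase, fell over the same hours by 1.80 and 1.51, the KO call being lost without any 1 KO replicate (adjusted p up to 0.137).

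**Figure D4:**
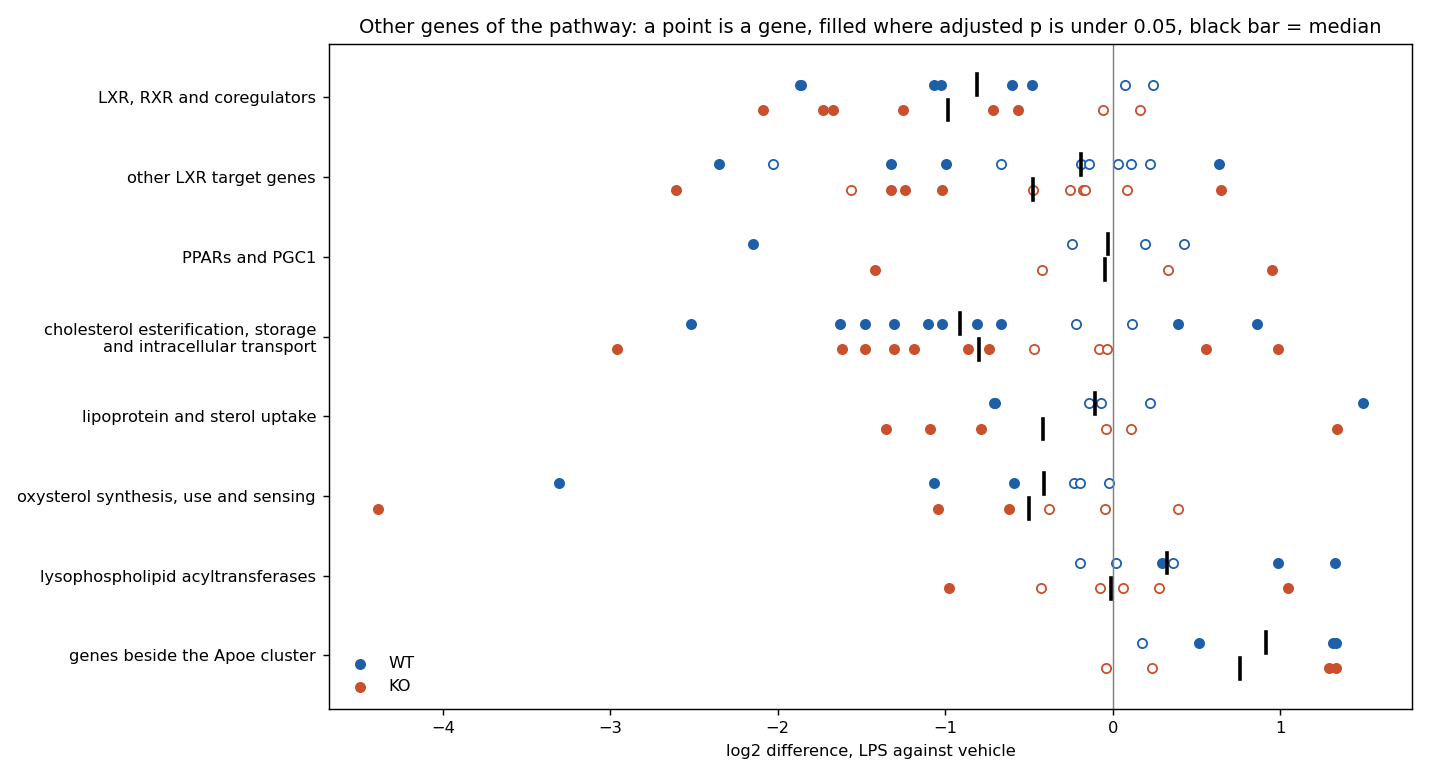
Log2 difference, LPS against vehicle (x axis), of the 57 other measured pathway genes in 8 lists, with WT in blue and KO in orange; each point is a gene, filled where it passed, and black bars are list medians. The leftmost points are Gpr183, at -3.30 in WT and -4.39 in KO cells, in the oxysterol list. Relb and Nectin2, beside the Apoe cluster, lie to the right.

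Of the genes for esterification, storage and transport of cholesterol inside the cell, 12 of 14 were measured, and with LPS 2 rose and 8 fell in WT cells and 2 rose and 7 fell in KO cells (medians -0.91 and -0.80). Nceh1, which hydrolyses cholesteryl esters, fell by 2.52 ± 0.17 and 2.96 ± 0.17, and Npc1, which exports cholesterol from lysosomes, by 1.63 ± 0.12 and 1.62 ± 0.12 (limma, adjusted p from 9.99e-10 to 2.21e-08). The oxysterol-binding protein gene Osbpl11 fell by 1.48 in each genotype. Npc1 and Nceh1 had risen from 0 h to vehicle, Npc1 by 0.90 in WT and 0.94 in KO cells; with equal hybridisation controls these calls, and those of Rxra and Mertk over the same hours, were lost in both genotypes, and those of Nceh1 also with no scaling or equal medians. Between the genotypes after LPS only Gramd1a of the 12 passed, against 5.97% of all genes, at 0.61 ± 0.14 higher in KO cells, a call lost without WT replicate 2 or any 1 KO replicate (adjusted p up to 0.0725).

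For uptake receptors, 6 of 8 were measured, and with LPS 1 rose and 2 fell in WT cells and 1 rose and 3 fell in KO cells. Msr1, the class A scavenger receptor, rose by 1.50 ± 0.32 and 1.34 ± 0.32, the KO call being lost without KO replicate 1 (adjusted p = 0.0788). Lrp1, an ApoE receptor, fell by 0.70 and 1.09. Its WT call was lost with the mean of its probe sets (-0.14, adjusted p = 0.695) and without WT replicate 1 (0.0506), and its KO call with equal hybridisation controls (0.0935). Cd36 fell by 1.35 ± 0.37 in KO cells, a call lost without KO replicate 1 or 2 (adjusted p = 0.0681 and 0.145), and was 2.59-fold lower in KO than in WT cells after LPS (limma, adjusted p = 0.0376). The latter call was lost with equal hybridisation controls (0.0776) and without any 1 of WT replicates 2 and 3 and KO replicates 1, 2 and 3 (up to 0.209). For oxysterol use and sensing, 3 of the 6 measured genes fell and 0 rose in each genotype. Gpr183, the receptor for oxysterols made from 25-hydroxycholesterol, fell 9.88-fold in WT and 20.9-fold in KO cells, while Ch25h rose. Its KO LPS arrays read 5.66 to 24.8 and 1 of 3 was above background, and the KO difference of -4.39 ranged from -5.17 to -3.06 over the alternatives. Hsd3b7, which acts on that same route, fell by 0.59 and 0.62, the KO call being lost with equal hybridisation controls (adjusted p = 0.244). Of the 4 PPAR-family genes measured, Pparg fell by 2.15 ± 0.32 in WT and 1.42 ± 0.32 in KO cells, the KO call being lost without KO replicate 2 (adjusted p = 0.0564). Its WT LPS arrays read 12.3 to 38.9, and 2 of 3 were above background. Ppard rose by 0.95 ± 0.28 in KO cells (limma, adjusted p = 0.0143), a call lost with no scaling, with equal hybridisation controls and without KO replicate 2 (0.145 to 0.166). After LPS Ppard was 1.23 ± 0.28 higher (adjusted p = 0.0162) and Ppargc1b 0.73 ± 0.20 lower in KO than in WT cells (adjusted p = 0.0364), so 2 of the 4 passed where 5.97% of all genes did. That of Ppard was lost without any 1 of WT replicates 1 and 2 and KO replicates 2 and 3 (up to 0.115), and that of Ppargc1b under each of the 3 other scalings (up to 0.529) and without any 1 of WT replicates 2 and 3 and KO replicates 1, 2 and 3.

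Lpcat3 has 6 sister acyltransferase genes on the list, all measured. With LPS 3 rose and 0 fell in WT cells, and 1 rose and 1 fell in KO cells. The WT count rested on the scaling: unscaled, 1 rose and 1 fell. Lpcat2, the LPS-regulated platelet-activating factor enzyme, rose by 1.33 ± 0.21 and 1.05 ± 0.21. After LPS, 2 of the 6 passed as lower in KO than in WT cells and 0 as higher (limma). Of all genes 3.15% were lower and 2.82% higher. Means were then 347 in WT and 204 in KO cells for Lpcat1, and 324 and 200 for Mboat7. How those calls fared under the alternatives is not given here. Where 1.11% of all genes passed, Lpcat1 and Mboat7 of the 6 passed for a difference between the genotypes in the LPS response, at -1.06 ± 0.21 and -0.78 ± 0.16 (limma, adjusted p = 0.0164 and 0.0250), calls lost under each of the 3 other scalings and without WT replicate 2, KO replicate 2 or KO replicate 3.

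Genes beside the Apoe cluster were read because Apoe, Apoc1 and Apoc2 lie together; in RefSeq gene order they run Relb, Clptm1, Apoc2, Apoc4, Apoc1, Apoe, Tomm40 and Nectin2. Relb, an NF-κB subunit, rose with LPS by 1.34 ± 0.16 in WT and 1.33 ± 0.16 in KO cells, and Nectin2, an adhesion molecule, by 1.32 ± 0.17 and 1.29 ± 0.17 (limma, adjusted p from 5.57e-06 to 1.08e-05), whereas Apoe, Apoc1 and Apoc2 between them fell. With equal hybridisation controls the WT calls of Relb and Nectin2 were lost, at unchanged direction, as was that of Nectin2 with no scaling (adjusted p = 0.0693). Of the 4 listed genes beside the cluster that were measured, 3 rose and 0 fell with LPS in WT cells, and 2 rose and 0 fell in KO cells. The 4 include Bcam, whose readings all lay below background, with WT means of 8.89 after vehicle and 12.8 after LPS. Clptm1, next to Apoc2, had a mean of 630 after vehicle and 712 after LPS in WT cells. In KO cells its means were 672 and 654. Apoc4 and Bcam were above background in no group.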

How the data were processed

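The authors deposited one intensity table of 18 arrays (Affymetrix HT MG-430PM plate, 3′ IVT kit, per the labels). The deposited intensity values are linear; Partek is named in the submitters' processing notes with no version, and the background correction and summarisation of probes are not stated in the labels or headers used here. Of 45141 probe sets, 104 are controls, 28898 carry 1 gene symbol in the platform annotation, 551 carry several and 15588 are not listed in it.

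Here intensities were taken to log2 and quantile-normalized over all probe sets, which sets the distribution equal on every array. A gene with several probe sets was represented by the one with the highest mean over all arrays. A model of 6 group means was fitted to 17097 genes with limma 3.58.1 (R 4.3.3), with two-sided moderated tests, Benjamini-Hochberg adjustment over all genes and a threshold of 0.05. The fit was checked on simulated data. Folds against a group wholly below the nonspecific level are bounds, set against that level or the probe's own value, whichever is higher. In 18 same-numbered pairs of samples across groups, deviations correlated at -0.05 to 0.14, with 2 over 0.1. Different-numbered pairs gave -0.19 to 0.10. Same-numbered samples of a genotype also shared a plate column in all 3 conditions. The labels do not state a pairing, so replicate numbers were not used as pairs in the main fit.

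All members were tested in every comparison. Klf3 and genes most like each member were named as well. Of each pathway list, at most 4 genes past the threshold were named per comparison, and some that passed were not named. Members and lists were chosen with earlier results of these data known, so their counts are descriptions. Other scalings, a pseudocount, dim-gene filters, probe-set rules, blocks and left-out arrays were tried as alternatives. Leaving out KO vehicle replicate 3, WT LPS replicate 1 and WT LPS replicate 3 singly was chosen after seeing the data. Abca1 and 13 pathway genes were not analysed here.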

Additional observations from a re-analysis of the deposited data

How the results depend on the processing

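Of 1674 values of members under alternatives, 1617 kept their call (85 of these, never called, changed sign), 25 passed it newly, 31 no longer passed and 1 reversed: Lpcat3 with LPS in WT cells, at -0.61 with no scaling against 0.01. Of 186 alternative counts of members called, 165 stayed within 1.5 times. For the LPS response between genotypes the count went from 0 to 1, Pltp, with equal medians, equal hybridisation controls, a pseudocount of 16, dim genes left out, values raised to the nonspecific level, the mean of all probe sets, the replicate number as a random block (consensus correlation 0.02), and without KO vehicle replicate 3 or WT LPS replicate 3; leaving out each replicate number of a genotype, in all 3 conditions, gave 0 to 1. For KO against WT after LPS the count of 2 became 1 with a pseudocount of 16 and without WT LPS replicate 1, and 4 without WT LPS replicate 3; leaving out each replicate gave 1 to 3. For vehicle against 0 h, leaving out each replicate gave 2 to 4 in WT and 0 to 4 in KO cells. The replicate number as a fixed block moved no count beyond 1.5 times in the comparisons fitted with it. The KO against WT comparisons were not fitted with that block, so their counts were not examined under it. Arrays were also matched by correlation to those of another condition in their genotype. In 10 of 18 such matches the best array had the same number. The numbers are not stated to pair samples. Unscaled arrays, equal medians and equal hybridisation controls shift the median of all genes with LPS in WT cells by -0.44, -0.05 and -0.43. Signal over background limits Apoc1 throughout, Cyp27a1 after LPS and Nr1h3 without LPS.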
